A study of Mus musculus with 6 samples.

Results

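The 8 keratins Krt1, Krt2, Krt9, Krt10, Krt76, Krt77, Krt78 and Krt80 are found in the spinous, granular and upper layers of stratified epithelia, and their messenger RNA was followed in the epidermis of newborn mice with and without Znf750. Znf750 (mouse symbol Zfp750) is a transcription factor with a zinc finger that acts in keratinocytes as they differentiate. The members were taken by symbol from 55487 genes with a value in every library, and the set was chosen by layer of expression together with the FPKM of Krt2 in Znf750_cKO against control libraries, which was already known. Levels and differences of the 8 members in this contrast are therefore given as a description, and no p-value is printed for them. Of the 6 libraries, 3 were labelled Znf750_cKO and 3 control, all from back skin epidermis at postnatal day 0. The labels describe the mice only as knock out and control, and the strain, the allele, any Cre driver and the control genotype are not given there. They do not say that the replicates are separate animals, so p-values measure only the spread between these libraries, which may be technical. Dispase was used to free the epidermis from the dermis, and RNA came from the trypsin-dissociated cells without a sort, so other cell types of skin may be present.

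Keratins build the intermediate filaments of epithelial cells, and each filament needs a type I chain paired with a type II chain. Basal keratinocytes make mainly the pair Krt5 (type II) and Krt14 (type I), and cells that leave the basal layer switch to Krt1 (type II) and Krt10 (type I). Krt2 is a type II chain added above the first suprabasal layers, and in mice it is known mostly from ear, tail and sole skin. Krt9 is the type I chain of footpad epidermis, Krt76 a type II chain of palate and other oral epithelia, and Krt77, Krt78 and Krt80 are less studied type II chains, the last of which is a keratin of late differentiation. Type I and type II genes sit in separate clusters.

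In the build GRCm38 all 8 members lie on the minus strand, Krt9 and Krt10 on chromosome 11 and the other 6 on chromosome 15. Krt2 (ENSMUSG00000064201) spans chr15:101810689-101818169 and its single annotated transcript has 9 exons and 2613 bases. Its nearest member, Krt1 (ENSMUSG00000046834), spans chr15:101845426-101850794, and 27256 bases separate both genes. Krt77 (ENSMUSG00000067594) lies at chr15:101858731-101869705, Krt76 (ENSMUSG00000075402) at chr15:101884351-101892920, Krt78 (ENSMUSG00000050463) at chr15:101946001-101954287 and Krt80 (ENSMUSG00000037185) at chr15:101347444-101370162. The type I members are Krt10 (ENSMUSG00000019761) at chr11:99385254-99389364 and Krt9 (ENSMUSG00000051617) at chr11:100186781-100193246. A trio of type II members from this stretch with different behaviour is shown by the 250 bases before their start sites (RefSeq, GRCm38.p6, minus strand, 5′ to 3′), Krt2 at chr15:101818170-101818419, Krt77 at chr15:101869706-101869955 and Krt78 at chr15:101954288-101954537. Krt2 was far higher in Znf750_cKO libraries, Krt77 was not called and Krt78 was lower. Capitals mark the motif letters found.
Krt2: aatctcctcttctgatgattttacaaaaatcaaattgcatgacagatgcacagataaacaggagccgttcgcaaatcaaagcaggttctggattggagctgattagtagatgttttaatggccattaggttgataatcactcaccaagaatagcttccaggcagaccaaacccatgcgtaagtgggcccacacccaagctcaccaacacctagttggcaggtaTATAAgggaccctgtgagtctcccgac
Krt77: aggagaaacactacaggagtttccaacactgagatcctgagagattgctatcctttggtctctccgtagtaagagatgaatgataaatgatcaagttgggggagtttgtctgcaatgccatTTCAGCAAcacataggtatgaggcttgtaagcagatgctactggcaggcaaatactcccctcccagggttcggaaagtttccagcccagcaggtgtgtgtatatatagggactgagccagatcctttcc
Krt78: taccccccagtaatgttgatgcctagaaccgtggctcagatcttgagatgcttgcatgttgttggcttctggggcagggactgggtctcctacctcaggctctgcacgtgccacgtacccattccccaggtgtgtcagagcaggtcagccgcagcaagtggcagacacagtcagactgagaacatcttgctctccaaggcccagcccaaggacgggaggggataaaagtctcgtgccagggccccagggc

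These 3 windows shared none of the motifs searched. On both strands of the 250-base windows, the letters TATAA, the core of a TATA box, the letters TGANTCA of AP-1 sites, AACNNGTT of grainyhead sites and TTGCNNAA of C/EBP sites were looked for. No searched motif overlaps another in the matches found. TATAA stood 27 bases before the start of Krt2, 26 before that of Krt10, 29 before that of Krt76 and 40 before that of Krt9, and 22.8% of all 32851 promoters in the table hold it. A TTGCNNAA match read TTCAGCAA in Krt77, 129 bases before the start, and TTATGCAA in Krt10, 119 bases before it (9.56% of promoters). AACNNGTT was matched in Krt76 as AACTTGTT, 116 bases before the start (3.64% of promoters), and TGANTCA in none of the 6 members in the table (6.75% of promoters). Krt78 held none of the 4. Krt1 and Krt80 had no promoter in the table and were not searched. The TATAA letters were chosen after the sequences had been seen, and a match or its absence describes these letters only.

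The libraries were alike in scale. The FPKM values (fragments per kilobase and library depth) summed to 703726 to 770835 in Znf750_cKO libraries and 714280 to 766690 in control libraries, and steps in the values place the depth at an estimated 22.98 to 35.38 M reads in Znf750_cKO and 21.49 to 28.42 M reads in control libraries. Zfp750 itself was at 0.99, 0.83 and 1.47 FPKM in Znf750_cKO libraries, against 44.82, 32.02 and 34.94 FPKM in control libraries (limma adjusted p = 4.62e-05, log2 change -4.19, SE 0.17), which goes with the labels. Zfp750 overlaps the protein-coding gene Tbcd on the opposite strand, at 14.77 to 24.25 FPKM in Znf750_cKO and 12.8 to 18.01 FPKM in control libraries. Without a stated read strand their reads are not separated by strand. Krt5 and Krt14, the keratin pair of basal keratinocytes, averaged 6740 and 6799 FPKM in Znf750_cKO and 6632 and 5268 FPKM in control libraries. Marker lists of other cells were summed, and several sums rest on 1 gene. The summed FPKM of 6 immune markers was 9.94 to 12.9 in Znf750_cKO and 66.6 to 101 in control libraries, 4 of the 6 being lower without overlap and Cd207 near 0 in every library. That of 6 Merkel cell markers was 2.59 to 4.31 in Znf750_cKO and 15.9 to 24.5 in control libraries, 2 of the 6 lower. Most of that difference is Chga, at 1.09 FPKM in Znf750_cKO and 16.6 FPKM in control libraries on average, while Atoh1, Isl1, Rab3c and Sox2 overlapped between the groups at under 1 FPKM. Summed fibroblast markers lay at 114 to 171 FPKM in Znf750_cKO and 133 to 159 FPKM in control libraries, of which Dcn alone averaged 141 FPKM in Znf750_cKO and 143 FPKM in control libraries while Col1a1, Pdgfra and Lum were under 1 FPKM in every library. Summed melanocyte markers lay at 96.6 to 113 FPKM in Znf750_cKO and 77.1 to 139 FPKM in control libraries. Summed endothelial markers were 5.52 to 31.4 FPKM in Znf750_cKO and 9.43 to 25.3 FPKM in control libraries, nearly all of it Pecam1, with Cdh5, Kdr, Tek and Emcn at 0 to 0.10 FPKM in every library. Muscle markers summed to 0.33 to 2.32 FPKM in Znf750_cKO and 1.09 to 1.88 FPKM in control libraries. Hair shaft markers summed to 19.1 to 22.8 FPKM in Znf750_cKO and 20.8 to 24.7 FPKM in control libraries. Most of that sum was Dlx3, averaging 14.0 FPKM in Znf750_cKO and 14.2 FPKM in control libraries. The hair keratins Krt31, Krt34, Krt35, Krt81 and Krt86 averaged 0.56, 0.61, 1.22, 0.19 and 0.12 FPKM in Znf750_cKO libraries. In control libraries they averaged 0.65, 1.06, 1.22, 0.87 and 0.90 FPKM, and each overlapped between the groups. Blood markers summed to 6.72 to 10.7 FPKM in Znf750_cKO and 19.4 to 52.5 FPKM in control libraries, with Hbb-y at 0 in all. Mitochondrial transcripts summed to 69835 to 74414 FPKM in Znf750_cKO and 75159 to 84610 FPKM in control libraries. The part of these cells and transcripts in the keratin values was not tested.

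Krt1 and Krt10, the pair that makes up most of the suprabasal filament mass, were abundant in both groups and their levels overlapped. Krt10 had 11231.21, 14585.03 and 8639.7 FPKM in Znf750_cKO replicates 1 to 3, against 7397.4, 11340.62 and 9949.83 FPKM in control replicates 1 to 3. Krt1 had 8865.6, 10940.33 and 7076.02 FPKM in Znf750_cKO libraries, against 6198.07, 9311.97 and 8272.23 FPKM in control libraries. The highest library of each group was replicate 2 for both genes, and the lowest was replicate 3 among Znf750_cKO and replicate 1 among control libraries. Mean Krt10 was 11485 ± 2981 FPKM in Znf750_cKO and 9563 ± 2000 FPKM in control libraries (SD, n = 3 each), 1.20-fold, and mean Krt1 was 8961 ± 1934 FPKM in Znf750_cKO and 7927 ± 1585 FPKM in control libraries, 1.13-fold. On the log2(FPKM + 1) scale the differences were 0.25 (SE 0.23) for Krt10 and 0.17 (SE 0.21) for Krt1, and neither was called. Over all alternatives they ran from 0.065 to 0.48 for Krt10 and from 0.0072 to 0.37 for Krt1. In bulk RNA, fewer cells of a type and less RNA per cell cannot be told apart.

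Krt2 was close to absent in control epidermis and strongly present in Znf750_cKO epidermis. It had 263.43, 333.92 and 171.69 FPKM in Znf750_cKO libraries, against 0.20, 0.30 and 0.29 FPKM in control libraries. Every Znf750_cKO library was far above every control library. The mean was 256 ± 81.3 FPKM in Znf750_cKO and 0.26 ± 0.055 FPKM in control libraries (SD, n = 3 each), a ratio of 973. The log2 change was 7.62 (SE 0.23) on the log2(FPKM + 1) scale, which understates the change of a gene this low in one group, and 9.42 with a pseudocount of 0.1. Over the 14 alternatives the log2 change was 7.40 to 9.42, again a description of the values that chose the gene. At the estimated depths, the levels correspond to about 23431, 22238 and 9919 reads in Znf750_cKO libraries and about 14.3, 16.2 and 17.1 reads in control libraries, so the control level is small but above 0 in each library. No 100-base stretch of the Krt2 transcript, of 2514, occurs in another annotated gene, and no gene overlaps it. Krt2 passed the filter on low values, set at 1 FPKM in 3 or more libraries, through the Znf750_cKO libraries alone.

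**Figure D1:**
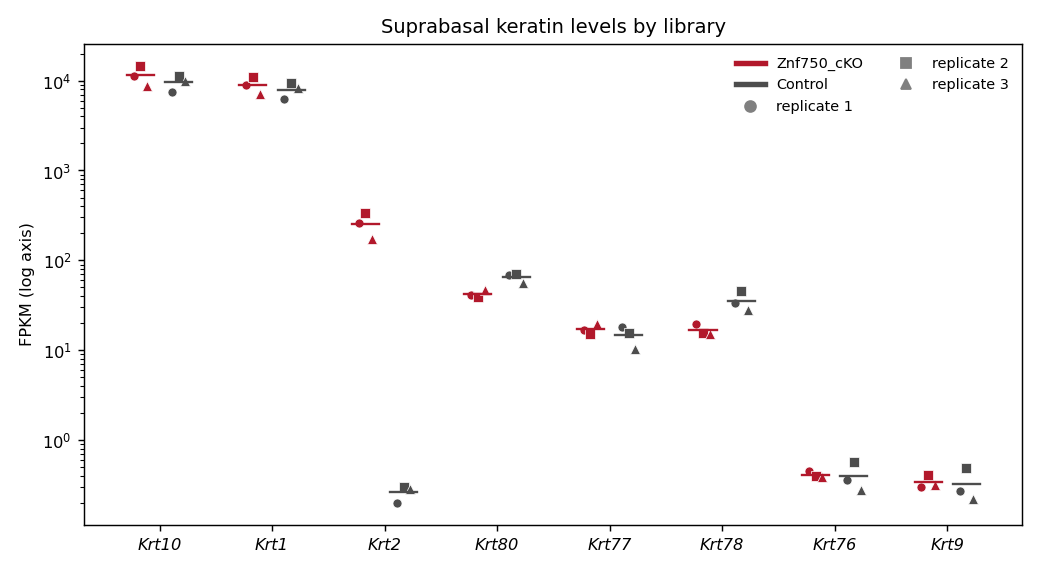
FPKM of the 8 suprabasal keratins (log axis) in each of 3 Znf750_cKO and 3 control libraries, with bars at the group means. Krt2 is at 171.69 to 333.92 FPKM in Znf750_cKO and 0.20 to 0.30 FPKM in control libraries, Krt78 and Krt80 are lower in Znf750_cKO without overlap, and the other 5 overlap.

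Krt78 and Krt80 were lower in Znf750_cKO epidermis, without overlap between the groups. Krt78 had 19.66, 15.75 and 15.06 FPKM in Znf750_cKO libraries, against 33.29, 45.82 and 27.73 FPKM in control libraries. Its mean was 16.8 ± 2.48 FPKM in Znf750_cKO and 35.6 ± 9.27 FPKM in control libraries (SD, n = 3 each), 0.472-fold, with a log2 change of -1.02 (SE 0.19). The gap between the groups, from 19.66 to 27.73 FPKM, was narrower than the range within the control libraries. Krt80, a keratin of late differentiation, had 40.79, 39.35 and 46.33 FPKM in Znf750_cKO libraries, against 68.89, 70.18 and 56.11 FPKM in control libraries. Its mean was 42.2 ± 3.69 FPKM in Znf750_cKO and 65.1 ± 7.78 FPKM in control libraries (SD, n = 3 each), 0.648-fold, with a log2 change of -0.61 (SE 0.12). Replicate 3 was the library nearest to the other group on both sides for Krt80. Both calls were lost, so that 0 members were called lower, with the replicate number as a block and with median-ratio scaling. With 1 library left out, Krt78 remained called only without control replicate 3 (-1.18), and lost its call when control replicate 1 (-1.05), control replicate 2 (-0.83) or any 1 Znf750_cKO replicate (-1.13, -0.98 and -0.95 for replicates 1 to 3) was left out. Krt80 remained called without control replicate 3 (-0.71) or Znf750_cKO replicate 3 (-0.68), and lost its call when replicate 1 (-0.57) or 2 (-0.55) of the control or replicate 1 (-0.59) or 2 (-0.56) of the Znf750_cKO libraries was left out. Krt80 overlaps the antisense gene Gm35853 (2.37 to 4.49 FPKM in Znf750_cKO and 5.23 to 7.14 FPKM in control libraries), with which it shares 71 of 3820 stretches of 100 bases (1.86%), and without a stated read strand their reads are not separated.

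Krt77, Krt76 and Krt9 did not separate the groups. Krt77, a suprabasal type II keratin, had 16.84, 15.08 and 19.75 FPKM in Znf750_cKO libraries, against 18.07, 15.58 and 10.42 FPKM in control libraries. The overlap was broad, and the means were 17.2 ± 2.36 FPKM in Znf750_cKO and 14.7 ± 3.90 FPKM in control libraries (SD, n = 3 each), with a log2 change of 0.24 (SE 0.20) that was not called and that turned to -0.070 without replicate 3 of both groups. Leaving out replicate 3 of the control alone gave 0.027, leaving out Znf750_cKO replicate 3 alone gave 0.14, and leaving out control replicate 1 gave 0.40. Krt76, the palate keratin, had 0.45, 0.40 and 0.39 FPKM in Znf750_cKO libraries, against 0.36, 0.57 and 0.28 FPKM in control libraries. Krt9, the footpad keratin, had 0.30, 0.41 and 0.32 FPKM in Znf750_cKO libraries, against 0.27, 0.49 and 0.22 FPKM in control libraries. Both stayed under the filter in every library and were not tested. At the estimated depths their levels correspond to about 19.8 to 35.2 reads for Krt76 and about 18.2 to 26.9 reads for Krt9 in Znf750_cKO libraries, against about 14.5 to 27.1 reads for Krt76 and about 12.8 to 26.1 reads for Krt9 in control libraries. No difference between the groups was detectable for either gene at this depth.

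Of the 8 members, 6 passed the filter, and of these 1 was called higher, 2 were called lower and 3 were not called. Over all 13688 tested genes, 4.22% were called, 1.11% higher and 3.10% lower. Because the set was chosen with this contrast known, nothing is read from the members' count against that background. Over all genes the calls were 152 higher and 425 lower, and 250 higher and 263 lower with median-ratio scaling, where the higher share was 48.7% of calls in place of 26.3%. With 1 library left out, the calls over all genes ranged from 34 higher and 66 lower without Znf750_cKO replicate 1 to 110 higher when Znf750_cKO replicate 2 and 259 lower when Znf750_cKO replicate 3 was left out. Leaving out control replicate 1, 2 or 3 gave 60, 60 and 73 higher and 136, 107 and 219 lower calls. Leaving out Znf750_cKO replicate 2 gave 245 lower calls and Znf750_cKO replicate 3 gave 97 higher calls. For 3 of the 6 members, 1 higher and 2 lower, the ranges of the groups were apart, as they were for 28.0% of all tested genes, 8.28% higher and 19.7% lower. The members' median log2 change was 0.21, that of all tested genes -0.08.

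The order of the members' levels differed between the groups mainly by the place of Krt2. In Znf750_cKO libraries the order was Krt10, Krt1, Krt2, Krt80, Krt77, Krt78, Krt76 and Krt9. Krt10 was above Krt1 in 3 of 3 libraries, although their ranges over libraries overlapped. Krt77 was above Krt78 in 1 of 3 and Krt76 above Krt9 in 2 of 3, and these 2 pairs of neighbours do not differ beyond their spread. In control libraries the order was Krt10, Krt1, Krt80, Krt78, Krt77, Krt76, Krt9 and Krt2, with overlapping ranges for Krt10 and Krt1, for Krt76 and Krt9 and for Krt9 and Krt2, although Krt10 was above Krt1 and Krt76 above Krt9 in 3 of 3. Krt2 thus stood above Krt80 in 3 of 3 Znf750_cKO libraries and last in the control order. It was 6.46, 8.49 and 3.71 times Krt80 in Znf750_cKO libraries, against 0.0029, 0.0043 and 0.0052 times in control libraries. FPKM is per length, so these levels can be set beside each other between genes.

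Even so, Krt2 remained a minor chain beside Krt1. Within a library, Krt2 amounted to 2.97%, 3.05% and 2.43% of Krt1 in Znf750_cKO libraries, against 0.00323%, 0.00322% and 0.00351% in control libraries. The means were 2.82% ± 0.34 in Znf750_cKO and 0.00332% ± 0.00016 in control libraries (SD, n = 3 each), a ratio of 849. Such ratios within a library do not depend on how libraries are scaled. Across Znf750_cKO libraries the coefficient of variation was 31.7% for the Krt2 level, 12.1% for Krt2 as a share of Krt1 and 8.73% for Krt2 as a share of Krt10. The Znf750_cKO library with the lowest Krt2, replicate 3, was also the lowest in Krt1 and Krt10. Of the summed FPKM of all 54 keratins matched, Krt2 made up 0.722%, 0.775% and 0.512% in Znf750_cKO libraries and under 0.001% in each control library.

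**Figure D2:**
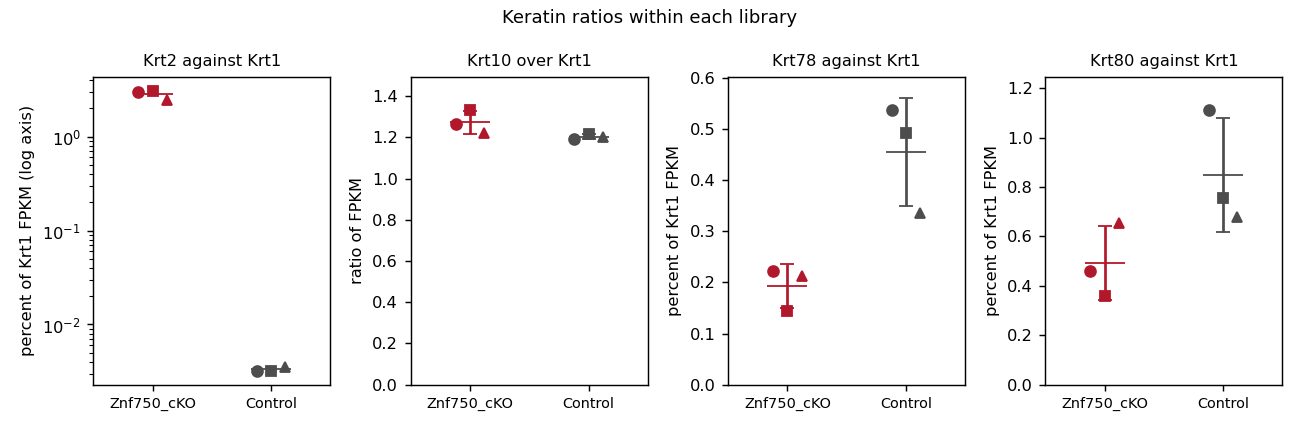
Ratios of keratin FPKM within each library for 3 Znf750_cKO and 3 control libraries, as points, with the mean and SD (no SD on the panel with a log axis). Krt2 as a share of Krt1 averages 2.82% in Znf750_cKO and 0.00332% in control libraries, and the Krt10 to Krt1 ratio is higher in the 3 Znf750_cKO libraries than in the 3 control libraries.

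The balance between the paired chains differed little between the groups. The Krt10 to Krt1 ratio was 1.267, 1.333 and 1.221 in Znf750_cKO libraries, against 1.194, 1.218 and 1.203 in control libraries. The ranges did not overlap, but the gap between the groups, 1.221 in the lowest Znf750_cKO and 1.218 in the highest control library, was far smaller than the spread of the Znf750_cKO libraries, and the means were 1.27 ± 0.056 in Znf750_cKO and 1.20 ± 0.012 in control libraries (SD, n = 3 each). Krt10 overlaps the antisense gene Gm11940, at 6.55 to 18.24 FPKM in Znf750_cKO and 16.64 to 25.58 FPKM in control libraries, low beside Krt10. All type II keratins together amounted to 0.809, 0.754 and 0.789 times all type I keratins in Znf750_cKO libraries, against 0.849, 0.814 and 0.823 times in control libraries. That ratio was lower in each Znf750_cKO library than in each control library, and the gap again was narrow. The sum of Krt1 and Krt10 over the sum of Krt5 and Krt14, a measure of suprabasal against basal keratin RNA, was 1.57, 1.90 and 1.09 in Znf750_cKO libraries, against 1.16, 1.81 and 1.45 in control libraries, with full overlap. Krt1 made up 24.3%, 25.4% and 21.1% of all keratin FPKM in Znf750_cKO libraries, against 21.2%, 25.8% and 23.9% in control libraries, and the 8 members together made up 56.0%, 60.2% and 47.6% in Znf750_cKO libraries, against 46.9%, 57.7% and 52.9% in control libraries. Krt78 amounted to 0.222%, 0.144% and 0.213% of Krt1 in Znf750_cKO libraries, against 0.537%, 0.492% and 0.335% in control libraries. Krt80 amounted to 0.460%, 0.360% and 0.655% of Krt1 in Znf750_cKO libraries, against 1.11%, 0.754% and 0.678% in control libraries, so both stayed apart when measured against Krt1, Krt80 by a narrow margin.

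The chromosome 15 cluster holds 26 type II keratins and the type I gene Krt18 at its end. Near Krt2, Krt1 and Krt77 were tested and not called, while Krt73, Krt72, Krt74, Krt76 and Krt4 were not tested. On one side of Krt2 lie Krt73, Krt72 and Krt74, keratins of the hair follicle's inner root sheath, with mean levels of 0.67, 0.040 and 0.090 FPKM in Znf750_cKO and 2.64, 1.79 and 0.11 FPKM in control libraries, all under the filter. On the other side lie Krt1, Krt77 and Krt76 with the values above, then Krt4, a keratin of oral and oesophageal epithelium, at 0.25 ± 0.23 FPKM in Znf750_cKO and 0.52 ± 0.17 FPKM in control libraries. Krt79, which lies beside Krt78 and was chosen for mention after its values were seen, is a keratin of the upper hair follicle. It had 122.9, 148.06 and 125.21 FPKM in Znf750_cKO libraries, against 413.96, 391.51 and 237.87 FPKM in control libraries (log2 change -1.35, limma adjusted p = 0.0195), lower in 3 of 3. The call of Krt79 was kept in 1 of 6 fits that leave out a library, the one lacking control replicate 3. With control replicates 1 and 2 left out in turn the limma adjusted p was 0.0614 and 0.0783, and with Znf750_cKO replicates 1 to 3 it was 0.0917, 0.0503 and 0.0549. Krt6b and Krt6a of this cluster, mentioned after their values were seen, were higher without overlap but not called (log2 change 2.69 and 1.51). Krt8, at the far end, was the only other type II gene called higher. The distance between Krt2 and Krt8 is 178528 bases.

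**Figure D3:**
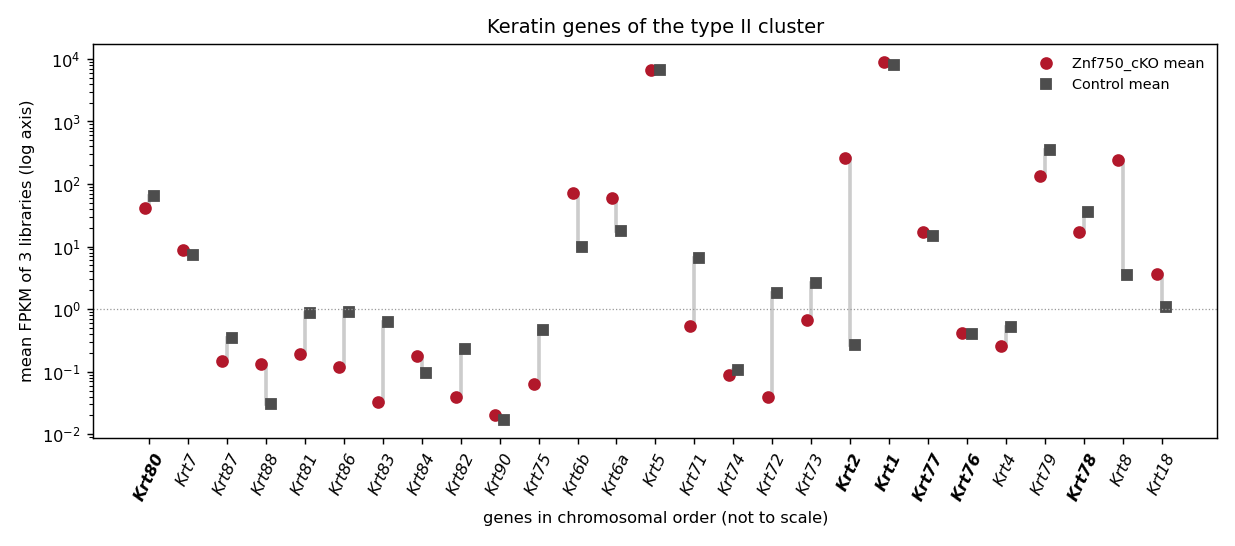
Mean FPKM (log axis) of 26 type II keratins and the adjoining type I gene Krt18 in chromosomal order, in 3 Znf750_cKO and 3 control libraries. Bold names mark the suprabasal members and a dotted line 1 FPKM. Krt2 stands at 256 FPKM in Znf750_cKO and 0.26 FPKM in control libraries and Krt8 at 241 FPKM in Znf750_cKO and 3.45 FPKM in control libraries, while Krt1 between them stands at 8961 FPKM in Znf750_cKO and 7927 FPKM in control libraries.

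Krt8, the type II keratin of simple epithelia and of the fetal periderm, was the gene whose pattern over the 6 libraries was most like that of Krt2. It had 239.4, 282.14 and 201.4 FPKM in Znf750_cKO libraries, against 3.65, 3.58 and 3.13 FPKM in control libraries. All Znf750_cKO libraries were above all control libraries, and the order of the Znf750_cKO libraries was that of Krt2, which Krt1 and Krt10 also had. The log2 change was 5.75 (SE 0.14, limma adjusted p = 1.78e-06, from 5.5e-07 to 0.000148 over the alternatives). Krt2 was 1.10, 1.18 and 0.852 times Krt8 in Znf750_cKO libraries, against 0.0548, 0.0838 and 0.0927 times in control libraries. Krt18, the usual type I partner of Krt8, rose to 3.71 ± 0.83 FPKM in Znf750_cKO, against 1.07 ± 0.35 FPKM in control libraries (log2 change 1.19, limma adjusted p = 0.0228). Krt18 was far below Krt8 in Znf750_cKO libraries, where Krt8 averaged 241 FPKM. In control libraries, where Krt8 averaged 3.45 FPKM, both were low and Krt18 was below Krt8 by much less. The summed FPKM of 6 periderm markers, all keratins and among them Krt8 and Krt18, was 1078 to 1177 in Znf750_cKO and 765 to 1028 in control libraries, with 3 of the 6 higher without overlap, namely Krt8, Krt18 and Krt6a, and Krt4 near 0 in both groups. Krt17, which overlapped, made up most of that sum. The part of such cells in the Krt2 and Krt8 values was not tested.

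Likeness to Krt2 was measured as the mean absolute difference between profiles over the 6 libraries, each profile of log2(FPKM + 1) scaled to run between 0 and 1, among 72 tested genes with a log2 change of at least 1 and a group mean of at least 10 FPKM. Krt8 had a mean difference of 0.0154. The next were Myh14, a nonmuscle myosin heavy chain, at 0.0389, Pmaip1, which encodes a pro-apoptotic protein, at 0.042, Slc15a3, a lysosomal peptide transporter, at 0.046, and Abcc3, an organic anion transporter, at 0.0609. Slc15a3 had 16.7 ± 0.49 FPKM in Znf750_cKO and 2.11 ± 0.44 FPKM in control libraries (log2 change 2.51, limma adjusted p = 0.000207), and Abcc3 had 12.8 ± 2.28 FPKM in Znf750_cKO and 2.71 ± 0.53 FPKM in control libraries (1.89, limma adjusted p = 0.00239). Myh14 had 13.8 ± 1.61 FPKM in Znf750_cKO and 4.54 ± 0.27 FPKM in control libraries (1.41, limma adjusted p = 0.00239), and Pmaip1 had 28.1 ± 0.51 FPKM in Znf750_cKO and 13.4 ± 0.55 FPKM in control libraries (1.01, limma adjusted p = 0.00241). These 5 genes were picked from genes chosen for a difference between the groups, so their tests are no independent support. Slc15a3 overlaps Tmem132a, at 97.71 to 132.68 FPKM in Znf750_cKO and 65.02 to 93.72 FPKM in control libraries, on the opposite strand, and Krt8 overlaps Gm36026, at 0 to 0.02 FPKM, so their reads are not separated by strand.

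Among the other keratins, Krt8 and Krt18 of simple epithelia rose, Krt27, Krt71, Krt79 and Krt12 fell, and 15 were not called. Of 46 listed, 21 were tested, and 2 rose and 4 fell, 28.6% called against 4.22% of all genes. The list was chosen with earlier results of these data known, so nothing is read from this share against that background. By type, 1 of 7 tested type II genes rose and 2 fell, and 1 of 14 tested type I genes rose and 2 fell. Krt27, a type I keratin of the inner root sheath, fell to 0.58 ± 0.11 FPKM in Znf750_cKO, against 6.83 ± 2.55 FPKM in control libraries (log2 change -2.25, limma adjusted p = 0.00546). Krt71, a type II keratin of the same sheath, fell to 0.53 ± 0.13 FPKM in Znf750_cKO, against 6.66 ± 2.92 FPKM in control libraries (-2.25, limma adjusted p = 0.00875). Krt12, the keratin of corneal epithelium, fell to 0.23 ± 0.095 FPKM in Znf750_cKO, against 2.04 ± 0.50 FPKM in control libraries (-1.29, limma adjusted p = 0.0154), and Krt79 fell as given above. Krt27, Krt71 and Krt12 were under 1 FPKM in every Znf750_cKO library and passed the filter through the control libraries alone. Krt18 reached 1 FPKM in every Znf750_cKO library but not in control replicate 3 (0.70 FPKM). Without the filter Krt8 (limma adjusted p = 6.21e-05) and Krt27 (0.0359) kept their calls. Krt18 (0.107), Krt71 (0.0549), Krt12 (0.0733) and Krt79 lost theirs. Summed inner root sheath markers, which include Krt27, Krt71 and Tchh, were at 47.1 to 112 FPKM in Znf750_cKO and 23.5 to 47.2 FPKM in control libraries, with 1 of 6 (Tchh, which carries the sum) higher and 3 lower without overlap, and their part was not tested.

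The basal pair was not called. Krt5, the most abundant gene of that list over the 6 libraries together, stood at 6740 ± 147 FPKM in Znf750_cKO and 6632 ± 349 FPKM in control libraries (log2 change 0.02, limma adjusted p = 0.938, and -0.015 without control replicate 2). Krt14 stood at 6799 ± 677 FPKM in Znf750_cKO and 5268 ± 304 FPKM in control libraries, higher in 3 of 3 but not called (0.36, limma adjusted p = 0.136). Krt6b, an activation keratin named after its values were seen, stood at 72.7 ± 43.1 FPKM in Znf750_cKO and 9.85 ± 4.07 FPKM in control libraries and was not called (2.69, limma adjusted p = 0.0583, and 0.0433 without Znf750_cKO replicate 3). Krt6a and Krt6b are near-identical genes whose reads the counting may have split. With 1 library left out, 4 other keratins rose without Znf750_cKO replicate 3 and 1 without any of the other 5 libraries. Those that fell numbered 2 without control replicate 2, 1 when Znf750_cKO replicate 1 was left out and 3 to 5 otherwise. Krt18 was called only without Znf750_cKO replicate 3, with limma adjusted p = 0.0508, 0.0775 and 0.0639 without control replicates 1 to 3 and 0.0979 and 0.0609 without Znf750_cKO replicates 1 and 2. Krt79 was lost in 5 of these 6 fits, as given above. Krt71 had 0.056 without Znf750_cKO replicate 1, and Krt12 had 0.0624 and 0.0509 without control replicates 2 and 3 and 0.0627 without Znf750_cKO replicate 1 (limma adjusted p).

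**Figure D4:**
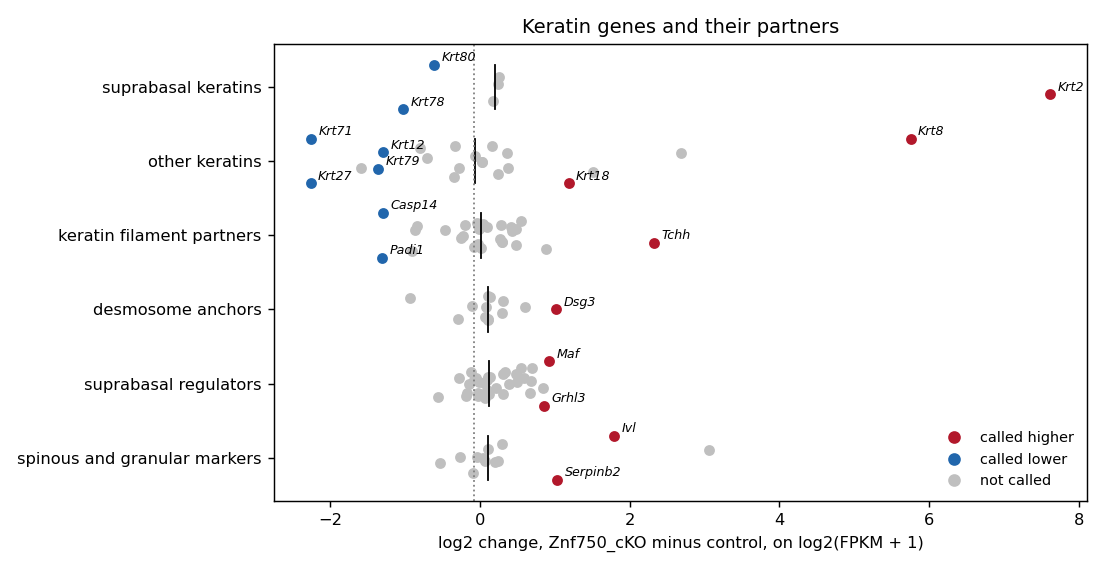
Log2 change (Znf750_cKO minus control, on log2(FPKM + 1)) of each tested member, other keratin, filament partner, desmosome gene, regulator and layer marker, coloured by call, with black ticks at the list medians and a dotted line at the median of all tested genes. Krt2 at 7.62 and Krt8 at 5.75 lie far to the right, and the list medians lie between -0.06 and 0.21.

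Most genes listed as keratin filament partners were not called, as holds for most of all tested genes. The list holds genes whose products bind, bundle, modify or link keratin filaments, and also others of keratinocyte differentiation such as Krtdap and Casp14. Of 27 tested filament partners, 1 rose, 2 fell and 24 were not called (11.1% called against 4.22% of all tested genes, median log2 change 0.02). The choice of the list was made with earlier results of these data known, so nothing is read from that share. Tchh, trichohyalin, a cross-linker of keratin filaments in the inner root sheath, rose to 80.2 ± 33.4 FPKM in Znf750_cKO, against 14.2 ± 1.93 FPKM in control libraries (log2 change 2.33, limma adjusted p = 0.0274). Padi1, an enzyme that deiminates keratins and filaggrin, fell to 0.097 ± 0.051 FPKM in Znf750_cKO, against 1.72 ± 0.35 FPKM in control libraries (-1.31, limma adjusted p = 0.0123). Padi1 passed the filter through the control libraries alone and lost its call without the filter (limma adjusted p = 0.0549). Casp14, a protease of filaggrin breakdown, fell to 50.5 ± 9.60 FPKM in Znf750_cKO, against 127 ± 34.9 FPKM in control libraries (-1.29, limma adjusted p = 0.0246). Krtdap, a secreted keratinocyte differentiation protein and the most abundant of the list, was at 4953 ± 621 FPKM in Znf750_cKO and 4116 ± 1123 FPKM in control libraries and was not called (limma adjusted p = 0.456). The rise of Tchh was called only without Znf750_cKO replicate 3, with limma adjusted p = 0.101, 0.103 and 0.0949 without control replicates 1 to 3 and 0.0597 and 0.0824 without Znf750_cKO replicates 1 and 2, so that 0 partners rose in those 5 fits, with 2 to 6 higher at an unadjusted p under 0.05. Padi1 was lost without control replicate 2 (0.0581) or Znf750_cKO replicate 1 (0.0627), and Casp14 without control replicate 1 (0.0817) or Znf750_cKO replicate 1 (0.0701) or 2 (0.0723), which leaves 1 partner that fell when replicate 1 or 2 of the control or replicate 2 of the Znf750_cKO libraries was left out, and 0 when Znf750_cKO replicate 1 was, with 6 lower at an unadjusted p under 0.05.

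Desmosomes are the junctions to which keratin filaments are anchored. Of 13 tested desmosome genes, 1 rose, 0 fell and 12 were not called in limma (7.69% called against 4.22% of all tested genes, median 0.11). At an unadjusted p under 0.05, 4 were higher (30.8%) and 1 lower (7.69%), against 5.94% higher and 15.3% lower of all tested genes. As the list was chosen with earlier results of these data known, nothing is read from these shares. Dsg3, a desmosomal cadherin of basal and lower layers, rose to 70.8 ± 11.6 FPKM in Znf750_cKO, against 34.5 ± 6.97 FPKM in control libraries (log2 change 1.02, limma adjusted p = 0.0239). Perp, a membrane protein of desmosomes and the most abundant of the list, was at 1838 ± 148 FPKM in Znf750_cKO and 1705 ± 94.1 FPKM in control libraries (0.11, limma adjusted p = 0.641). Dsg3 lost its call when replicate 2 (limma adjusted p = 0.0662) or 3 (0.0669) of the control or replicate 1 (0.108) or 3 (0.0646) of the Znf750_cKO libraries was left out, and 0 desmosome genes rose in those fits, with 2 to 3 higher at an unadjusted p under 0.05.

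Transcription factors and Notch pathway genes known to steer the basal to suprabasal switch were tested as a list of 33. Of these, 2 rose, 0 fell and 31 were not called in limma (6.06% called against 4.22% of all tested genes, median 0.12). At an unadjusted p under 0.05, 10 were higher (30.3%) and 0 lower, against 5.94% higher and 15.3% lower of all tested genes. That background depends on scaling: with median ratios 1446 of 13655 genes were higher and 1227 lower, and 14 regulators higher and 0 lower. The list was chosen with earlier results of these data known, so nothing is read from its share against the background. Grhl3, a grainyhead factor of barrier formation, rose to 36.3 ± 3.95 FPKM in Znf750_cKO, against 19.5 ± 0.81 FPKM in control libraries (log2 change 0.86, limma adjusted p = 0.00875). Maf, a basic leucine zipper factor of keratinocyte differentiation, rose to 15.8 ± 1.17 FPKM in Znf750_cKO, against 7.87 ± 1.13 FPKM in control libraries (0.93, limma adjusted p = 0.013). Maf overlaps the antisense gene Gm15655 at 3.39 to 5.39 FPKM in Znf750_cKO and 0 to 0.92 FPKM in control libraries, and their reads are not separated. Klf4, a zinc finger factor of differentiation and barrier formation and the most abundant of the list, was at 247 ± 7.60 FPKM in Znf750_cKO and 169 ± 26.1 FPKM in control libraries, higher in 3 of 3 but not called (0.55, limma adjusted p = 0.0536, and 0.0388 without control replicate 3). Klf4 was called under each of 3 other scalings, at limma adjusted p = 0.0476 with equal FPKM sums, 0.037 with median ratios and 0.0445 with upper quartiles. Without Znf750_cKO replicate 1, Maf was lost (0.0591) and 1 regulator rose, and with the replicate block or median-ratio scaling 4 rose.

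Most other markers of the spinous and granular layers, where the members are made, were not called, as holds for most of all tested genes. Of 13 tested, 2 rose, 0 fell and 11 were not called in limma (15.4% called against 4.22% of all tested genes, median 0.11). At an unadjusted p under 0.05, 4 were higher (30.8%) and 0 lower, against 5.94% higher and 15.3% lower of all tested genes. This list too was chosen with earlier results of these data known, so nothing is read from these shares. Genes of these layers also stood in the other lists, and those given here were named after their values were seen. Flg (log2 change -0.83), Flg2 (-0.91) and Cdsn (-0.93) were lower without overlap but not called, and Casp14 fell as given above. Hrnr (0.49) and Rptn (0.88) were higher with overlap and not called. Serpinb2, a serine protease inhibitor, rose to 145 ± 17.5 FPKM in Znf750_cKO, against 70.0 ± 6.57 FPKM in control libraries (log2 change 1.04, limma adjusted p = 0.00633). It overlaps Serpinb10 on the same strand, at 145.69 to 175.74 FPKM in Znf750_cKO and 99.11 to 143.04 FPKM in control libraries. Ivl, involucrin, a precursor of the cornified envelope, rose to 152 ± 27.0 FPKM in Znf750_cKO, against 44.5 ± 16.8 FPKM in control libraries (1.79, limma adjusted p = 0.0218, and 0.0577 with the replicate block). Calm4, a calmodulin-like protein of differentiating skin and the most abundant of the list over the 6 libraries together, was at 3054 ± 139 FPKM in Znf750_cKO and 2908 ± 829 FPKM in control libraries (0.11, limma adjusted p = 0.821, and -0.12 without control replicate 1). Mt4, a metallothionein of stratified epithelia named after its values were seen, was at 70.2 ± 39.7 FPKM in Znf750_cKO and 6.97 ± 3.38 FPKM in control libraries, higher in 3 of 3 but not called (3.06, limma adjusted p = 0.0803, and 0.0408 without Znf750_cKO replicate 3). Ivl lost its call when replicate 1 (limma adjusted p = 0.0505) or 3 (0.0724) of the control or replicate 1 (0.0861) or 2 (0.0723) of the Znf750_cKO libraries was left out, which leaves 1 marker that rose, while 3 rose when Znf750_cKO replicate 3 was left out.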

How the data were processed

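Per the file headers, each of 6 deposited files gives 1 FPKM value per Ensembl gene, fragments per kilobase of transcript scaled by the authors to the library's mapped fragments. The submitters' processing notes name RSEM 1.2.28, STAR 2.5.2a and DESeq2, further cutadapt 1.15 and Trim Galore 0.4.5, quality tools (MultiQC 1.0, FastQC 0.11.8) and the builds mm10 and GRCm38. The notes give no roles, and neither annotation release nor filters are given there. Per the labels' protocols, poly(A) RNA was sequenced as 100-nucleotide single reads, and the kit is not stated to mark strand.

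The 13688 genes that reached 1 FPKM in 3 or more libraries entered limma 3.58.1 (trend and robust variances, statmod 1.5.0, R 4.3.3) as log2(FPKM + 1), with no term but group. A Benjamini-Hochberg adjusted p under 0.05 over all tested genes is a call, and errors are SDs over 3 libraries. The fit was tested on simulated data. Plots used Python 3.11.15 and matplotlib 3.10.9. Symbols were matched for 55141 identifiers and lacking for 346. Coordinates are from GENCODE M21 on GRCm38, and promoters from RefSeq on GRCm38.p6, which matched 6 of the 8 members, all but Krt1 and Krt80. Krt85 was not used here. Sequences shared with other genes were counted over stretches of 100 bases of the longest protein-coding transcript.

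The members and lists were chosen with earlier results of these data known. Named genes are the members, Zfp750, Krt5, Krt14, up to 3 called genes per direction with the smallest p and the most abundant tested gene of each list, and the 5 genes most like Krt2. Depth came from steps that single reads leave in FPKM values: 62.5% to 73.5% of values per library lay within 0.1 read of a whole number. These estimates entered no test. The labels number replicates 1 to 3 in both groups. After group means were removed, same-numbered libraries had correlations over genes of 0.306, 0.165 and 0.477, all over 0.1. Differently numbered libraries had -0.389 to 0.24. The highest of these, Znf750_cKO replicate 2 with control replicate 1, was above the 0.165 of the replicate 2 libraries. The numbers were treated as pairs in a blocked fit on the ground of the same-numbered correlations. This pairing comes from the data, as no label explains the numbers. Alternatives were a pseudocount of 0.1, equal FPKM sums, median ratios, upper quartiles, no filter, no trend or robust variances, the block, leaving out each library, and leaving out replicate 3 of both groups. The labels name no batch.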

Additional observations from a re-analysis of the deposited data

How the results depend on the processing

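Krt2 as a share of Krt1 in Znf750_cKO ran from 2.70% to 3.01% with 1 library left out. Members called lower were 0 with median ratios, without the filter, without trend and robust variances and with the replicate block, and 0 to 2 with 1 library left out. Without the filter, 1 other keratin rose and 1 fell, 0 partners rose and 0 fell (7 and 8 at an unadjusted p under 0.05), 0 desmosome genes (4) and 0 regulators (10) rose, 1 layer marker rose, and over all genes 31 rose and 54 fell, with 35621 genes tested. With median ratios 2 partners and 4 regulators rose, and 250 genes rose and 263 fell; the median log2 change of all genes was 0.02 there. With the block 2 partners, 4 regulators and 1 layer marker rose and 256 genes fell. Without replicate 3 of both groups 0 desmosome genes (4) and 1 layer marker rose, 95 genes rose, and the log2 change of Krt77 turned to -0.070. With 1 library left out, 1 to 4 other keratins rose and 1 to 5 fell, 0 to 1 partners rose and 0 to 2 fell, 0 to 1 desmosome genes, 1 to 3 regulators and 1 to 3 layer markers rose, and 34 to 110 genes rose and 66 to 259 fell; the log2 change of Krt5 ran from -0.015 to 0.061 and that of Calm4 from -0.12 to 0.31. Among values of single genes, 386 kept direction and call, 65 lost and 8 gained a call and 3 reversed. The cause was not tested. Beside Krt78, Krt80 and Ivl, the block changed no other named call. Depth limits Krt9 and Krt76 and the control level of Krt2, which rest on few reads.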
